A study of Mus musculus with 20 samples.

Results

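The Ms4a family was followed in macrophages of the cranial dura mater. Its members encode membrane proteins that cross the membrane 4 times, and the rows of the count table with the symbols Ms4a7, Ms4a6b, Ms4a6c, Ms4a6d, Ms4a4a, Ms4a4c and Ms4a14 were taken as members, which gives 7 of the 21 Ms4a genes in the table and 7 of its 33243 gene symbols. All 7 had a total count of at least 10 over the libraries and were tested. RNA was measured in CNS-associated macrophages of the dura (dCAMs) that had repopulated this tissue after depletion, and the comparisons ask how tdT+ and tdT− dCAMs differ and how each responds to bacterial lipopolysaccharide (LPS).

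All 10 mice carried 1 Ccr2CreERT2 allele and 2 R26tdT alleles (Ccr2creERT2/+ R26tdT/tdT), so that tamoxifen switches on the red fluorescent protein tdTomato (tdT) in cells that express Ccr2, the chemokine receptor of inflammatory monocytes, at that time. All of them, controls included, received the CSF1R inhibitor BLZ945 by gavage at 200 mg per kg for 7 days, and tamoxifen at 2 mg per day from the last of these days. After 8 weeks, 5 mice (54, 56, 59, 60 and 61) were injected with LPS at 2.5 mg per kg and 5 mice (174, 175, 177, 178 and 179) with PBS (CTL), and the dura was taken 12 h later. From each mouse, dCAMs in a CD45int CD11b+ CD206int-high gate gave a tdT+ and a tdT− library, which makes 20 libraries in 4 groups of 5. The label reports Ccr2 expression around the time of depletion and not the present state of a cell. A tdT− cell may also be one that was not recombined, or one that entered the dura after tamoxifen. The study reports ongoing replacement of dCAMs by cells of hematopoietic stem cell origin under control conditions. Gavage was begun at 10 ± 3 weeks of age. No dCAMs of mice without BLZ945 were analysed here.

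Ms4a proteins are small surface proteins best known from Ms4a1, which encodes CD20 of B cells, and Ms4a2, which encodes a chain of the IgE receptor of mast cells. In macrophages, MS4A4A has been linked to signalling by the beta-glucan receptor Dectin-1 (Clec7a), and human variants in the cluster that holds MS4A4A and MS4A6A to the level of soluble TREM2 and to the risk of Alzheimer's disease. Ms4a7 is widely used as a marker that sets border macrophages apart from microglia.

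Library totals ranged from 6017650 to 12208203 counts in the CTL libraries and from 12073566 to 18925908 in the LPS libraries. The number of genes with at least 10 counts was lower in tdT− CTL libraries (6671 to 9365) than in tdT+ CTL libraries (10024 to 11032) and in the LPS libraries (10930 to 11987). All 8 macrophage markers (Mrc1, Csf1r, Adgre1, Cd68, C1qa, C1qb, Fcgr1 and Mertk) were above 3 counts in every library. Levels are given as CPM (counts per 1e+06 counts, with library sizes adjusted by the TMM method). The summed level of these markers ranged from 10042 to 19268 CPM in tdT− CTL and from 22571 to 25269 CPM in tdT+ CTL libraries, without overlap. In LPS libraries it ranged from 8652 to 13868 CPM. Among B cell markers, Pax5 was at 0 in all libraries, while the sum of the list ranged from 608 to 1334 CPM in CTL and from 13.2 to 40.7 CPM in LPS libraries. In CTL libraries nearly all of it was Ighm, with a mean of 835 CPM in tdT− and 774 CPM in tdT+ libraries. The granulocyte sum lay between 0.419 and 179 CPM in CTL and between 100.3 and 746 CPM in LPS libraries. Of its genes, only S100a8 was called with LPS. Means of S100a8 were 8.07 (CTL) and 291 CPM (LPS) in tdT− and 2.09 and 309 CPM in tdT+ dCAMs. Retnlg had means of 54.0 and 216 CPM in tdT− and of 1.46 and 0.302 CPM in tdT+ dCAMs, and was not called. In LPS mice, all tdT+ libraries were below all tdT− libraries for Retnlg. S100a9 and Ly6g were at or below means of 4.33 CPM in every group, and Ms4a3 was at 0 in all libraries. The fibroblast sum was 3786 CPM in the tdT− CTL library of mouse 179 against at most 819 CPM in the other libraries. In bulk libraries, fewer cells of a type and less RNA per cell cannot be told apart.

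The Ms4a genes lie in 1 cluster on mouse chromosome 19, where RefSeq places 21 of them between positions 10962289 and 11640851. The build behind the count table was not settled by its sources, so that the positions, from the GENCODE M21 annotation of GRCm38, only locate a gene. In the order of the chromosome, Ms4a14 (11301249 to 11314454, minus strand), Ms4a7 (11321039 to 11336146, minus), Ms4a4a (11375523 to 11392790, plus), Ms4a4c (11404770 to 11427246, plus), Ms4a6c (11469366 to 11482192, plus), Ms4a6b (11516512 to 11531256, plus) and Ms4a6d (11586604 to 11604849, minus) follow each other, and the only other Ms4a genes between them are Ms4a4b and Ms4a4d. All 7 are annotated as protein coding. Their exons cover 4065 bases in Ms4a14, 4453 in Ms4a7, 836 in Ms4a4a, 1751 in Ms4a4c, 2050 in Ms4a6c, 4485 in Ms4a6b and 1735 in Ms4a6d. The paralogs are similar enough to share reads in part: of the distinct 50-base words in their transcripts, 8.19% of Ms4a4c (nearly all with Ms4a4b), 3.57% of Ms4a6b, 2.54% of Ms4a6d and 0.306% of Ms4a7 occur in another gene, and 0% of Ms4a4a and Ms4a14. For Ms4a6c the share was 51.4%, since the lncRNA BE692007 overlaps 1088 of its exonic bases. No counts are given under the symbol BE692007, and 117 words of Ms4a6c also occur in Ms4a6b. Counts of Ms4a6c are therefore uncertain as counts of this gene alone.

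**Figure D1:**
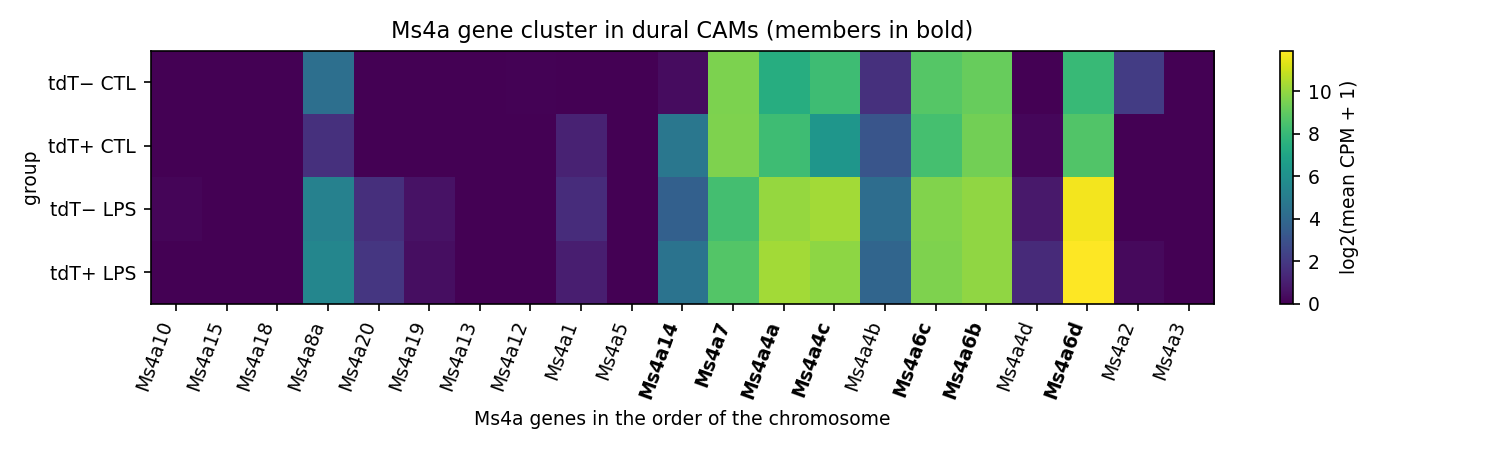
Mean level of the 21 Ms4a genes in the 4 groups, as log2(mean CPM + 1) in colour, with the genes in the order of the chromosome (x axis) and 1 row per group (y axis). The 7 members, in bold, hold most of the signal, and Ms4a6d, Ms4a4a and Ms4a4c are brighter in both LPS rows.

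The stretches before the RefSeq start sites of 5 members are shown because these genes had positive (Ms4a6b, Ms4a6c, Ms4a4a and Ms4a4c) or negative (Ms4a7) log2 fold changes with LPS in both populations. The RefSeq table held 7 windows for 6 of the members, on GRCm38.p6. It held none for Ms4a6d, which also had positive log2 fold changes with LPS in both populations. Each sequence covers bases −250 to −1 from the start site on the strand of the gene, and capitals mark matches, on either strand, to an interferon response element (GAAANNGAA), an NF-kB motif (GGGANTTTC) or the PU.1 core (GAGGAA). They are Ms4a6b at chr19:11518309-11518558 (plus strand), Ms4a6c at chr19:11469118-11469367 (plus), Ms4a4a at chr19:11375238-11375487 (plus), Ms4a4c at chr19:11407411-11407660 (plus) and the more distal of 2 windows of Ms4a7 at chr19:11336147-11336396 (minus). In GENCODE M21, the stretches of Ms4a6b and Ms4a4c lie inside the gene, since its first annotated transcript starts earlier, and those of Ms4a4a and Ms4a7 lie before it. In RefSeq, too, the stretch of Ms4a4c lies inside the gene, which starts at 11404717. The bases before that position were not searched.
Ms4a6b: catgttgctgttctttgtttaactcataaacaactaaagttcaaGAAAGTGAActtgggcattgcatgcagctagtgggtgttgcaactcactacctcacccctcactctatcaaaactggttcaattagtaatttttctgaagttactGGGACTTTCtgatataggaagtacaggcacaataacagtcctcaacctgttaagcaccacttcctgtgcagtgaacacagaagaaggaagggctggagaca
Ms4a6c: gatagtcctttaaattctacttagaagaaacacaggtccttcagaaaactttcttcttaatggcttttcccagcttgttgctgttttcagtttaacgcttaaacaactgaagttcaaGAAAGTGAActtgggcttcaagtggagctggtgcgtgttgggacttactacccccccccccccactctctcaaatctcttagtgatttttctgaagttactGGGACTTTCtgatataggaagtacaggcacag
Ms4a4a: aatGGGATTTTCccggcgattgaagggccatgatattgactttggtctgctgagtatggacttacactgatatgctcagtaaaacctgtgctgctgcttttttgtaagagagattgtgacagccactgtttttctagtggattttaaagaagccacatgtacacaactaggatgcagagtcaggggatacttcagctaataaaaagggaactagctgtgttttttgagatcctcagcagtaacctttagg
Ms4a4c: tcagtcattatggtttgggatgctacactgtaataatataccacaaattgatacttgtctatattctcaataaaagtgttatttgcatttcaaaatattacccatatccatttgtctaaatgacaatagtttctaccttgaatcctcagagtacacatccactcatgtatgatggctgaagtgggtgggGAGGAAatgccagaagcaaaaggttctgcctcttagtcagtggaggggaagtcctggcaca
Ms4a7: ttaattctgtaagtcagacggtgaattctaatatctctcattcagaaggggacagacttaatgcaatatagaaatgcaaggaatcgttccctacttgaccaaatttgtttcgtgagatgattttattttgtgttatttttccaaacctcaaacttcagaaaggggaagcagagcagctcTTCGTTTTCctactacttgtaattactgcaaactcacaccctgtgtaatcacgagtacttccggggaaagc

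Ms4a6b and Ms4a6c read alike here: their best local alignment spans 179 columns with 148 identical bases, and both hold the interferon response element match GAAAGTGAA and the NF-kB match GGGACTTTC, at −206 and −101 in Ms4a6b and at −133 and −32 in Ms4a6c. Ms4a4a holds the NF-kB match GGGATTTTC at −247, and the stretch of Ms4a4c, inside its gene, holds only a PU.1 core at −61. In Ms4a7 each of its 2 windows holds an interferon response element match. Over windows of 300 bases, which also take in 50 bases after the start, 4 of the 7 member windows held the interferon response element, against 8.56% of all 32851 RefSeq windows, and 3 of 7 the NF-kB motif, against 1.11%. The PU.1 core was found in 3 of the 7 (28.3% of all windows), AP-1 (TGANTCA) in 2 (7.81%), the TATA box (TATAAA) in 1 (13.6%) and C/EBP (TTGCNNAA) in 0 (10.8%). A match describes the letters of these windows only. The 2 similar windows of Ms4a6b and Ms4a6c count separately, and so do the 2 windows of Ms4a7, the member that fell with LPS. Members and motifs were chosen with earlier results of these data known, so that these shares are a description and no test.

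Together, the members took 0.244% ± 0.0338 (SD, n = 5) of the counts in tdT− CTL and 0.267% ± 0.0117 in tdT+ CTL libraries, against 0.763% ± 0.0811 (tdT−) and 0.792% ± 0.156 (tdT+) after LPS. The lowest LPS library stood at 0.661% and the highest CTL library at 0.280%, so that the treatments did not overlap. By mean log2 CPM over all libraries, Ms4a6d ranked 80, Ms4a6b 117, Ms4a6c 182, Ms4a7 194, Ms4a4a 205 and Ms4a4c 297 among the 16632 genes tested, while Ms4a14 ranked 7862.

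Per kilobase of exon, the order of the members changed with treatment. In tdT− CTL libraries, Ms4a6c (209 ± 58.2 CPM per kb) and Ms4a4a (202 ± 118) stood first, and Ms4a4c (167 ± 119), Ms4a7 (166 ± 40.1), Ms4a6d (149 ± 58.1) and Ms4a6b (126 ± 26.8) followed, with neighbours in this order closer than their spread. In tdT+ CTL libraries, Ms4a4a led with 352 ± 63.2 CPM per kb, ahead of Ms4a6d with 233 ± 19.3, Ms4a7 with 173 ± 13.4, Ms4a6c with 164 ± 13.7 and Ms4a6b with 149 ± 11.8, and Ms4a4c was next to last with 43.3 ± 24.8. After LPS, Ms4a6d led in both populations, with 1902 ± 158 CPM per kb in tdT− and 2197 ± 319.8 in tdT+ libraries. Ms4a4a (1235 ± 88.2 and 1462 ± 155), Ms4a4c (704 ± 229 and 529 ± 174), Ms4a6c (396 ± 75.4 and 372 ± 83.9) and Ms4a6b (213 ± 41.2 and 218 ± 76.0) followed, and Ms4a7 was next to last with 72.3 ± 21.3 and 93.4 ± 38.2. Ms4a6d thus made up 14.6% of the summed CPM per kb of the members in tdT− CTL and 42.0% after LPS in tdT− libraries, and Ms4a7 16.3% and 1.60%. Ms4a14 was last in all 4 groups, at 0.0798, 6.33, 2.84 and 5.37 CPM per kb.

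**Figure D2:**
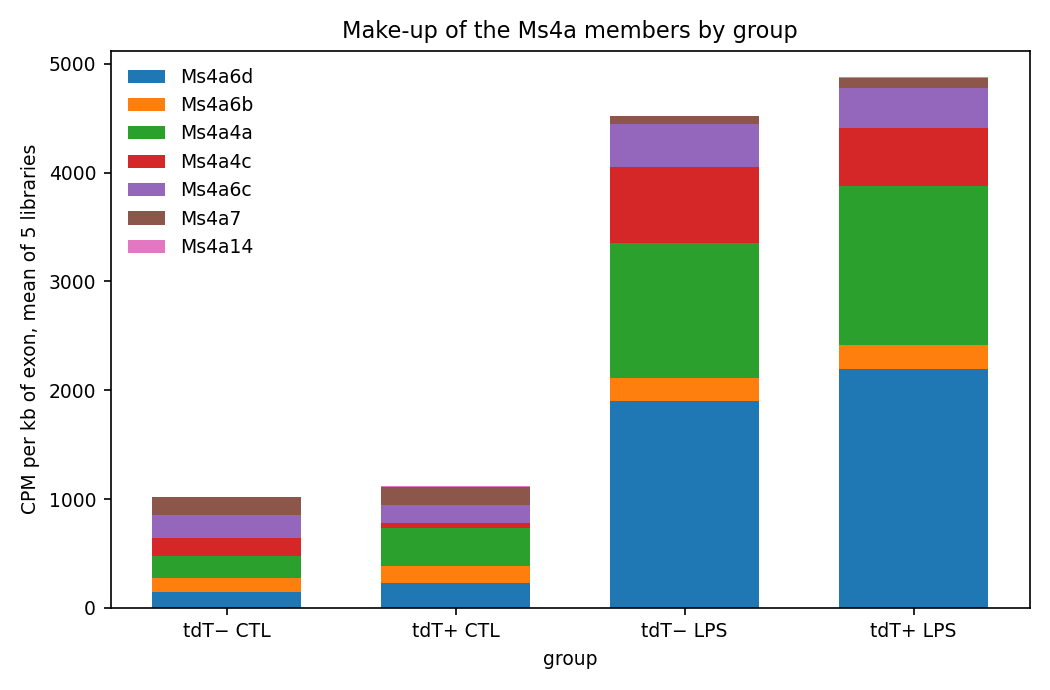
Mean CPM per kb of exon of the 7 members, stacked, in the 4 groups (mean of 5 libraries each, no error bars). The stack reaches 1019 and 1120.3 in the CTL groups and 4525 and 4877 in the LPS groups, where Ms4a6d and Ms4a4a form most of it.

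The LPS response was asked separately in tdT− and tdT+ dCAMs. A gene was called when its Benjamini-Hochberg adjusted p over all 16632 genes was under 0.05 and its absolute log2 fold change over 1 in edgeR's quasi-likelihood test on all 20 libraries. In tdT− dCAMs, Ms4a6d, Ms4a4a, Ms4a4c and Ms4a14 rose and Ms4a7 fell, which is 5 of 7 members called where 11.5% of all genes were (7.2% higher and 4.27% lower). Of the 5823 abundant genes, whose log2 CPM averaged 4 or more as that of every member but Ms4a14 did, 14.3% were called. In tdT+ dCAMs, Ms4a6d, Ms4a4a, Ms4a4c and Ms4a6c rose, 4 of 7 called where 5.89% of all genes (3.37% higher) and 10.8% of the abundant ones were. The median log2 fold change of the 7 members was 2.08 in tdT− and 1.18 in tdT+ dCAMs, and that of all genes tested 0.02 and 0.01. In tdT− dCAMs, all 5 LPS libraries were above all 5 CTL libraries for 6 members and below them for Ms4a7, where 9.32% and 3.31% of all genes showed no overlap in these directions. In tdT+ dCAMs this held for 4 members upward and Ms4a7 downward, against 10.6% and 7.19% of all genes.

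**Figure D3:**
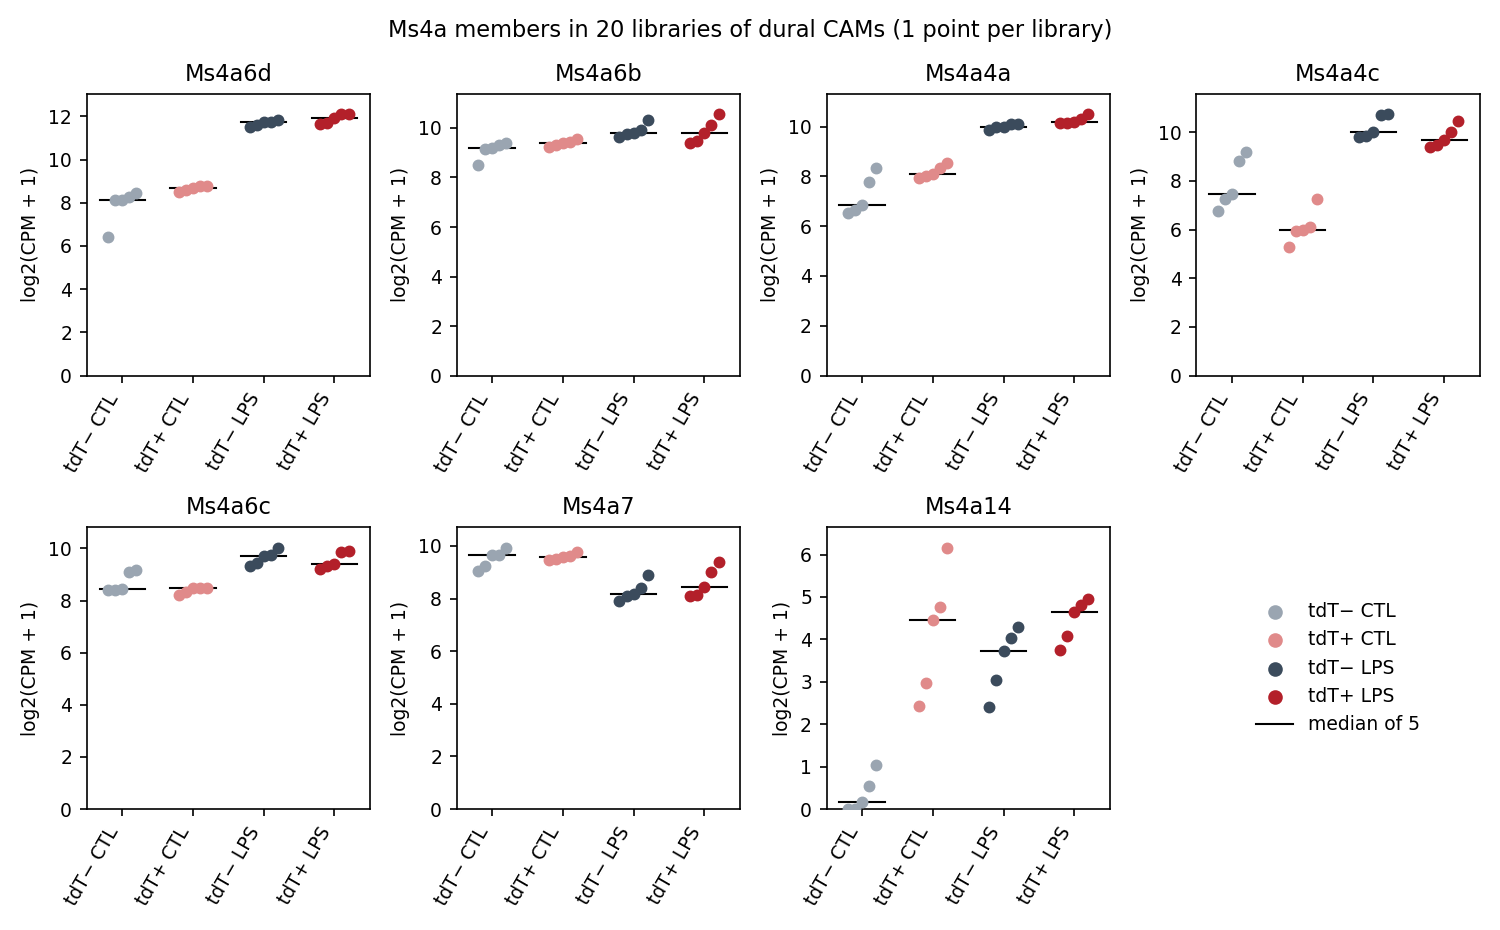
Level of each member as log2(CPM + 1) (y axis) in the 4 groups (x axis), with 1 point per library and a line at the median of 5. Ms4a6d, Ms4a4a and Ms4a4c stand higher in every LPS library than in any CTL library of the same population, and Ms4a7 lower.

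Ms4a6d, which has been studied in macrophages as a partner of the complement receptor Vsig4, had the largest LPS response of the abundant members in tdT− dCAMs. Its level in the tdT− CTL libraries of mice 174, 175, 177, 178 and 179 was 277, 303, 347, 277 and 85.0 CPM, and in the tdT− LPS libraries of mice 54, 56, 59, 60 and 61 it was 2927, 3598, 3110.0, 3418 and 3445 CPM. In tdT+ dCAMs the same mice had 382, 431, 405, 441 and 360.2 CPM (CTL) and 4353, 3152, 3356, 4354 and 3846 CPM (LPS). The groups were far apart in both populations, and the tdT− CTL library of mouse 179 stood below all others. Means rose 12.8-fold in tdT− (258 ± 101 to 3299 ± 273 CPM, SD, n = 5) and 9.44-fold in tdT+ dCAMs (404 ± 33.5 to 3812 ± 555 CPM). The log2 fold changes were 3.68 ± 0.25 (SE, edgeR adjusted p = 3.89e-09) and 3.24 ± 0.25 (adjusted p = 1.32e-08), and by p Ms4a6d ranked 11 and 24 among all genes. With mouse as a replicate block in limma-voom, Ms4a6d was not called in either population (log2 fold changes of 3.74 and 3.26, adjusted p = 0.578 and 0.603). In a voom fit without the block, the tdT+ LPS library of mouse 61 held 94.1% of the weight for this gene, with weights from 2.69 to 4220000. With the same block in limma-trend on log2 CPM, which gives all libraries equal weight and was chosen after seeing the data, it was called in both (3.82 and 3.23, adjusted p = 1.67e-09 and 1.64e-08). Without the tdT− CTL library of mouse 179, the log2 fold change in tdT− dCAMs was 3.45.

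Ms4a4a, the Dectin-1 partner, rose in both populations as well. The tdT− libraries had 115, 218, 320.1, 91.9 and 99.8 CPM in CTL and 929.7, 1023, 1104, 1003 and 1104 CPM in LPS mice, in the order of mice above. In tdT+ libraries it was at 257, 319.8, 275, 245 and 374 CPM in CTL and at 1249, 1126, 1127, 1437 and 1173 CPM in LPS mice. The LPS libraries formed a narrow band in both populations, with a coefficient of variation of 7.14% and 10.6%, while the tdT− CTL libraries varied by 58.4%. The log2 fold change was 2.61 ± 0.28 (edgeR adjusted p = 1.42e-06) in tdT− and 2.06 ± 0.27 (adjusted p = 2.47e-05) in tdT+ dCAMs, or 6.11-fold and 4.16-fold.

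Ms4a4c, known as an interferon-responsive member, rose from different starting levels. In tdT− libraries it stood at 578, 177, 107, 152 and 448 CPM in CTL and at 1014, 899, 912, 1695 and 1644 CPM in LPS mice. In tdT+ libraries it stood at 151, 59.7, 68.6, 61.6 and 38.1 CPM in CTL and at 703, 671, 812, 1404 and 1041 CPM in LPS mice. LPS libraries were above all CTL libraries in both populations, and mouse 60 was the highest LPS mouse in each. The rise was 4.22-fold in tdT− (log2 fold change 2.08 ± 0.43, edgeR adjusted p = 0.00244) and 12.2-fold in tdT+ dCAMs (3.61 ± 0.46, adjusted p = 1.57e-05). With mouse as a replicate block in limma-voom, the tdT+ value was 3.90 with an adjusted p of 0.0673, and in limma-trend with the block 3.71 with an adjusted p of 2.17e-06. Ms4a4b and Ms4a4d, with which Ms4a4c shares words of sequence, reached at most 38.1 and 2.93 CPM.

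Ms4a7 went the other way. In the CTL mice 174, 175, 177, 178 and 179 it was at 528, 805, 970.1, 595 and 805 CPM in tdT− and at 761, 786, 711, 865 and 731 CPM in tdT+ libraries. In the LPS mice 54, 56, 59, 60 and 61 it was at 273, 333, 289.8, 479.9 and 236 CPM in tdT− and at 519, 271, 344, 664 and 282 CPM in tdT+ libraries. LPS libraries were below all CTL libraries in both populations, and mouse 60 was again the highest LPS mouse. The log2 fold change was −1.20 ± 0.25 (edgeR adjusted p = 0.00240) in tdT− dCAMs, a 2.30-fold fall of the mean. In tdT+ dCAMs it was −0.89 ± 0.25 (adjusted p = 0.0312), within the limit of 1 on the log2 scale and therefore not called; without mouse 60 it was −1.12 (adjusted p = 0.00286) and called, as it was with mouse as a replicate block in limma-voom (−1.02, adjusted p = 0.00109). The summed CPM of the macrophage markers had medians of 16155 (tdT−) and 22845 (tdT+) in CTL and of 9265 (tdT−) and 11918 (tdT+) in LPS libraries, and of the 8, 2 rose and 2 fell in tdT− dCAMs and 1 rose and 3 fell in tdT+ dCAMs. Of all genes, 11.5% were called in tdT− and 5.89% in tdT+ dCAMs. The sum of 3 microglia markers ranged from 71.6 to 389 CPM in CTL and from 537 to 834 CPM in LPS libraries. Of these, Tmem119 was called higher in both populations (means of 40.4 and 645 CPM in tdT− and of 83.7 and 598 CPM in tdT+ dCAMs), P2ry12 had lower means after LPS (126 and 54.9 CPM, and 218 and 55.8 CPM) without a call, and Sall1 was at or below a mean of 0.394 CPM in every group. The part of both lists in the result was not tested.

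Ms4a6b and Ms4a6c, whose windows above align, showed smaller differences. Ms4a6c was at 335 to 574 CPM in tdT− CTL and 647 to 1038 CPM in tdT− LPS libraries (log2 fold change 0.92 ± 0.20, edgeR adjusted p = 0.00313, not called for its size), and at 297 to 361 CPM in tdT+ CTL and 597 to 955 CPM in tdT+ LPS libraries (1.18 ± 0.20, adjusted p = 0.000382, called). The groups did not overlap in either population. Without mouse 177, Ms4a6c was also called in tdT− dCAMs (1.05, adjusted p = 0.00198). Ms4a6b, which T cells also express, was at 363 to 673 CPM in tdT− CTL and 796 to 1270.0 CPM in tdT− LPS libraries (0.76 ± 0.21, adjusted p = 0.0191, not called). In tdT+ dCAMs its range of 606 to 746 CPM in CTL lay within that of 668 to 1495 CPM in LPS libraries in part, and the log2 fold change was 0.55 ± 0.21 (adjusted p = 0.139, 95% interval 0.14 to 0.96). The sum of 7 T or NK cell markers ranged from 0 to 21.4 CPM in CTL and from 6.39 to 62.6 CPM in LPS libraries, and its part in these values was not tested.

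Ms4a14 was the only member at the limit of detection in a group. Counts in the tdT− CTL libraries of mice 174, 175, 177, 178 and 179 were 0, 0, 1, 4 and 8, so that 2 of the 5 were above the floor of 3 counts, and the levels were 0, 0, 0.123, 0.452 and 1.05 CPM. The floor corresponds to 0.329 to 0.455 CPM in these libraries. In tdT− LPS libraries it was at 7.23, 12.2, 18.6, 15.3 and 4.31 CPM, in tdT+ CTL libraries at 26.1, 6.90, 4.38, 20.9 and 70.3 CPM, and in tdT+ LPS libraries at 23.9, 16.0, 29.9, 27.0 and 12.4 CPM. The tdT− CTL libraries were below all libraries of the other 3 groups, and the tdT+ CTL library of mouse 179 was the highest of all. In tdT− dCAMs the log2 fold change with LPS was 5.11 ± 1.07 (edgeR adjusted p = 0.00258, called), a value that rests on few counts in CTL, and the adjusted p was 0.0690 in a fit on these 10 libraries alone. When 1 mouse was left out, the value ranged from 4.79 to 6.18, the highest without mouse 179, and it was called each time. In tdT+ dCAMs it was −0.24 ± 0.88 (adjusted p = 0.973), with a 95% interval from −1.96 to 1.49. The tdT− CTL libraries also had fewer genes with at least 10 counts than all other groups, and the part of this in the result was not tested.

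**Figure D4:**
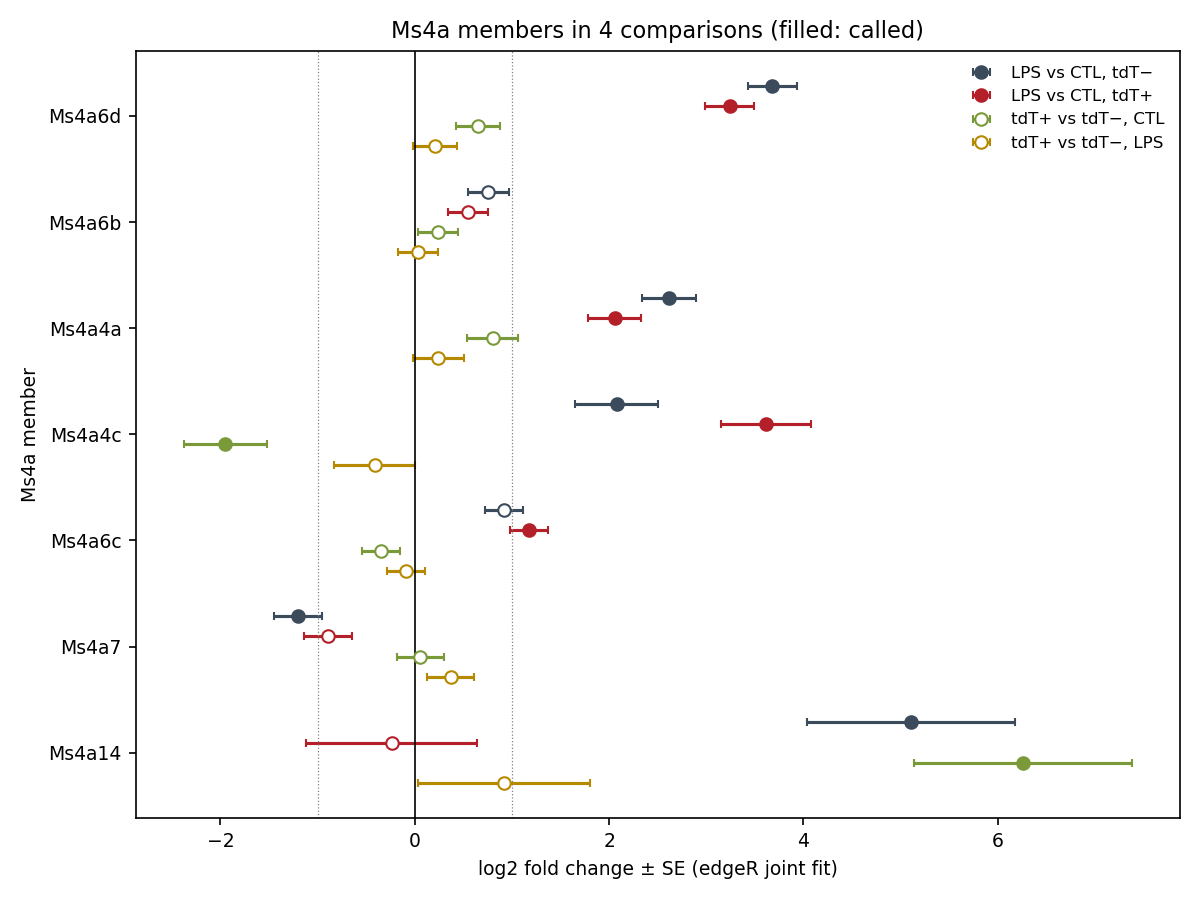
Log2 fold change of each member (x axis, point, with bars of 1 SE from the joint edgeR fit) in 4 comparisons, with members on the y axis and filled points for calls. Dotted lines mark −1 and 1, and only Ms4a7 lies left of 0 in both LPS comparisons, while Ms4a14 has the widest bars.

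To ask if LPS acted differently on the 2 populations, the log2 fold change in tdT− dCAMs was subtracted from that in tdT+ dCAMs in the same fit. In edgeR, 0 of 7 members were called where 1.26% of all genes were. Of the members, 2 had an unadjusted p under 0.05, Ms4a14 and Ms4a4c, and DESeq2 called 1, Ms4a14. For Ms4a14 the difference was −5.34 ± 1.34 (edgeR adjusted p = 0.0531), with 5 tdT− libraries that carried 0 to 8 counts as its base. With mouse as a replicate block it was called in limma-voom (−5.38, adjusted p = 0.0101) and in limma-trend (−4.46, adjusted p = 0.0396). With mouse as a fixed term in the joint edgeR fit it was not called. It was also called without mouse 175 (edgeR adjusted p = 0.0187), 177 (0.0472) or 179 (0.0194). Of 21 alternative settings, 9 called it. For Ms4a4c the difference was 1.54 ± 0.59 (adjusted p = 0.239, 95% interval 0.38 to 2.69), the larger rise being in tdT+ dCAMs. The other 5 members differed by −0.56 to 0.31, with adjusted p of 0.630 or more.

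At baseline, tdT+ and tdT− dCAMs of the same CTL mice were compared. The macrophage marker sum was at most 19268 CPM in tdT− and at least 22571 CPM in tdT+ CTL libraries. Fewer genes had at least 10 counts in tdT− than in tdT+ CTL libraries. The part of both differences in the comparison by label was not tested. Ms4a14 was higher and Ms4a4c lower in tdT+ dCAMs, 2 of 7 members called where 4.28% of all genes (3.01% higher and 1.27% lower) and 3.43% of the abundant ones were. Both had the same direction in 5 of 5 mice, as did Ms4a6d, and 9.46% of all genes showed 1 direction in all 5 mice. Ms4a14 and Ms4a6d did not overlap between the groups, which held upward for 2.36% of all genes. Ms4a14 was far apart (at most 1.05 CPM in tdT− and at least 4.38 CPM in tdT+ libraries), with a log2 fold change of 6.26 ± 1.12 (edgeR adjusted p = 0.00193). It was 7.34 without the tdT− library of mouse 179, 5.95 to 6.54 when 1 mouse was left out, and called each time. Means of Ms4a4c were 292 ± 208 CPM in tdT− and 75.7 ± 43.5 CPM in tdT+ libraries, 3.86-fold lower. Its log2 fold change was −1.95 ± 0.43 (edgeR adjusted p = 0.00946). The groups overlapped because the tdT+ library of mouse 174 (151 CPM) was above the tdT− library of mouse 177 (107 CPM). Without mouse 179, Ms4a4c was not called (−1.57, adjusted p = 0.0507), and without the tdT− library of that mouse alone it was called (−1.74, adjusted p = 0.0206). With mouse as a replicate block, both members were called in the joint edgeR fit (adjusted p = 0.0135 for Ms4a4c and 0.00702 for Ms4a14) and in limma-trend, only Ms4a14 in limma-voom (Ms4a4c adjusted p = 0.420), and 0 in the fit on the 10 CTL libraries alone, where 3 of all genes were called.

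The other 5 members were not called by label at baseline. Ms4a6d was higher in tdT+ dCAMs without overlap, 360.2 to 441 CPM against 85.0 to 347 CPM, with a log2 fold change of 0.65 ± 0.23 and an edgeR adjusted p of 0.107. Ms4a4a was higher in 4 of 5 mice (0.80 ± 0.26, adjusted p = 0.0849), and without mouse 177, whose tdT− library was the highest of its group, it was called (1.19, adjusted p = 0.00498). Ms4a6c (−0.35 ± 0.20), Ms4a6b (0.24 ± 0.21) and Ms4a7 (0.06 ± 0.25) had adjusted p from 0.296 to 0.969, and the 95% interval for Ms4a7 ran from −0.42 to 0.54.

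**Figure D5:**
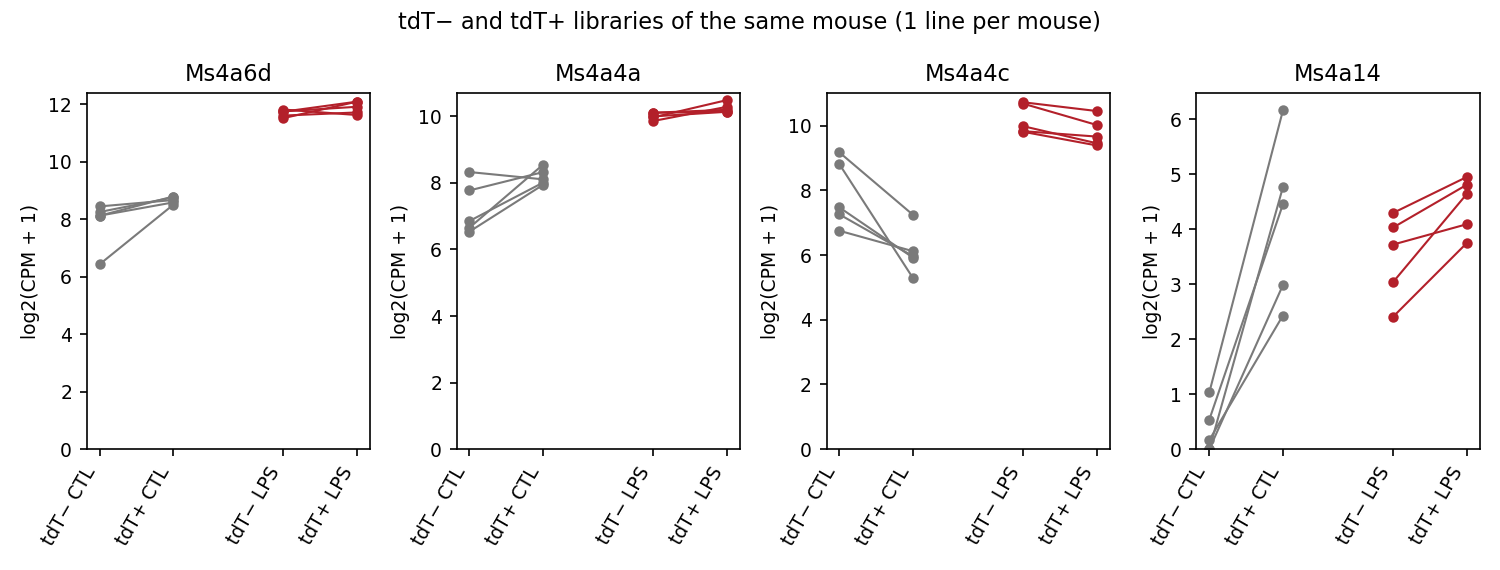
Level of Ms4a6d, Ms4a4a, Ms4a4c and Ms4a14 as log2(CPM + 1) (y axis) in the tdT− and tdT+ library of each mouse (x axis), with 1 line per mouse, grey for CTL and red for LPS. All 5 CTL lines fall for Ms4a4c and rise for Ms4a14, and the LPS lines have the same directions.

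After LPS, 0 of 7 members were called by label in edgeR, where 0.0301% of all genes were, and 0 had an unadjusted p under 0.05 or were called by DESeq2. Ms4a4c was lower in the tdT+ library of 5 of 5 mice (−0.41 ± 0.41, 95% interval −1.23 to 0.40), and Ms4a14 and Ms4a4a were higher in 5 of 5 (0.92 ± 0.89 and 0.24 ± 0.26). Across all genes, 9.90% showed 1 direction in all 5 LPS mice. Ms4a4a was the only member whose groups did not overlap here, as 0.631% of all genes did upward, at 929.7 to 1104 CPM in tdT− and 1126 to 1437 CPM in tdT+ libraries, a difference of 1.18-fold in the means. The directions of Ms4a4c and Ms4a14 in LPS mice were those at baseline; that the differences were smaller there was not called by the test of the difference above, except for Ms4a14 in the fits named.

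Of the 14 Ms4a genes that are no members, 7 could be tested. Ms4a20 rose in both populations, from at most 1 count in any CTL library to 0.656 to 3.01 CPM in tdT− and 1.60 to 4.65 CPM in tdT+ LPS libraries (edgeR adjusted p = 0.00594 and 0.00131). Ms4a8a reached 14.8 to 86.0 CPM in all 10 LPS libraries and was at 0 in 7 CTL libraries, but the tdT− CTL library of mouse 179 held 97.3 CPM, and it was not called. Ms4a1 (CD20) and Ms4a19 were called in tdT− dCAMs (adjusted p = 0.0378 and 0.0428) with at most 5.08 and 1.55 CPM in any LPS library of that population. Ms4a2, of mast cells, was above 0 in 2 of the 20 libraries, at 16.7 CPM in the tdT− CTL library of mouse 174 and at 1.25 CPM in the tdT+ LPS library of mouse 59. Ms4a4b, of T cells, ranged from 0 to 38.1 CPM and was not called.

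Proteins linked to the family were followed as a list of 8 (Clec7a, Trem2, Tyrobp, Fcer1g, Syk, Card9, Adam10 and Adam17). With LPS, 2 of the 8 fell in each population, and these were Clec7a, which encodes Dectin-1, and Trem2, the lipid receptor of macrophages whose shedding is linked to the human cluster. Means of Clec7a went from 322 to 26.9 CPM in tdT− and from 220.5 to 14.1 CPM in tdT+ dCAMs (edgeR adjusted p = 8.80e-06 and 2.55e-06), and of Trem2 from 260.0 to 32.9 and from 244 to 28.1 CPM (adjusted p = 1.03e-06 and 5.72e-07). Fcer1g, a signalling adaptor, rose from 1942 to 4572 CPM in tdT+ dCAMs (adjusted p = 6.30e-07). Of all genes, 4.27% were called lower in tdT− dCAMs, and 5.89% in either direction in tdT+ dCAMs. Tyrobp, the adaptor of Trem2, had log2 fold changes of −0.71 and −0.67, and Syk, the kinase downstream of Dectin-1, of 0.07 and −0.28, all uncalled. Ms4a4a and the gene of the receptor it is known to work with thus changed in opposite directions in both populations.

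Among 16 genes stimulated by type I interferon, 7 rose and 0 fell in each population, with a median log2 fold change of 1.98 and 1.85. Of all genes, 7.2% were called higher in tdT− and 3.37% in tdT+ dCAMs. Irf7 (208 to 1726 CPM in tdT− and 199 to 1724 CPM in tdT+ dCAMs) and Ifi209 (133 to 593 and 81.7 to 620 CPM) were called, and Oasl2 (0.64 and 1.20 on the log2 scale) and Ifi204 (0.89 and 0.99) were not. Of 12 genes of border macrophages, 8 fell and 0 rose in each population, among them Apoe (18935 to 6185 and 24421 to 7097 CPM), Lyz2 (12290 to 2081 and 11909 to 2422 CPM) and, in tdT+ dCAMs only by call, Csf1r (2709 to 1362 and 5992 to 1416 CPM), while F13a1 was not called. Among all genes, 4.27% were called lower with LPS in tdT− dCAMs, and 5.89% in either direction in tdT+ dCAMs. By label in CTL mice, 4 of the 12 border macrophage genes were called higher in tdT+ dCAMs, where 3.01% of all genes were. Of 10 monocyte genes, 4 were lower in tdT+ than in tdT− dCAMs at baseline, as Ms4a4c was, among them Ccr2, whose mean was 615 in tdT− and 277 CPM in tdT+ dCAMs (adjusted p = 0.0289). Of all genes, 1.27% were called lower in tdT+ dCAMs at baseline. The part of monocyte-like cells in the baseline level of Ms4a4c was not tested.

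Of 17 neighbours of the cluster in the table, which lie between the Ms4a genes or next to them, 13 could be tested and 3 were called in each population after LPS. Of all genes, 11.5% were called in tdT− and 5.89% in tdT+ dCAMs. The lncRNA AW112010 rose from 122 to 1635 CPM in tdT− and from 94.8 to 1678 CPM in tdT+ dCAMs (log2 fold changes of 3.75 and 4.15, against 3.68 and 3.24 for Ms4a6d), and the pseudogene Gm336 rose from 0.0246 to 3.18 CPM and from 0 to 1.85 CPM. Tmem109, before the first Ms4a gene, fell by 2.02 and 2.20 on the log2 scale. Within the cluster, Ms4a7 fell in tdT− dCAMs between Ms4a14 and Ms4a4a, which both rose there.

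Over the 20 libraries, the members paired with different genes of the rest of the table. Among 5817 genes outside the family that reach a mean log2 CPM of 4, the highest Pearson r of log2 CPM with Ms4a7 was that of the complement genes C1qc (0.936) and C1qa (0.930) and of Cd81 (0.920). Ms4a4c was most like Ifi35 (0.943), Tap1 (0.942) and Isg15 (0.941), interferon-stimulated or antigen presentation genes. Ms4a6d was most like the lipid droplet gene Plin2 (0.979), Cd47 (0.976) and Ly6a (0.967), and Ms4a4a most like Nus1 (0.970), Cd38 (0.965) and Tax1bp1 (0.964). Ms4a6c was most like the glycolysis genes Eno1 (0.944) and Ldha (0.936) and Ucp2 (0.936), and Ms4a6b most like Lgals9 (0.855), Pdia3 (0.844) and Psma5 (0.842). These r describe 20 points that fall into 4 groups and 10 pairs from the same mouse, and carry no test.

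Removing the group means changed the order of likeness among members. After the group means had been removed, r over the 20 libraries was 0.66 between Ms4a6b and Ms4a6d, 0.56 between Ms4a7 and Ms4a6c, 0.54 between Ms4a7 and Ms4a6b and 0.50 between Ms4a6d and Ms4a4a. For Ms4a4c it was −0.49 with Ms4a4a and −0.35 with Ms4a6d, although all 3 rose after LPS. Between Ms4a7 and Ms4a6d it was −0.77 before and 0.14 after the group means had been removed. These r include the tdT− CTL library of mouse 179, where Ms4a6d was at 85.0 CPM against 277 CPM in the next library of its group. Ms4a6b, at 363 CPM, was also the lowest of its group there, and Ms4a4c was at 448 CPM. How far the r rest on this library was not tested.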

How the data were processed

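Bulk RNA of 20 dCAM libraries was analysed. Per the labels, RNA was amplified with a low-input kit (SMART-Seq mRNA LP) without unique molecular identifiers, and the submitters' processing notes name bcl2fastq 2.20, STAR 2.7.11a, featureCounts 2.0.6 and DESeq2 1.46.0. The authors deposited raw counts per gene symbol. The build, the strand setting and the treatment of reads with several matches are not given for this table in the sources used here, so that reads of paralogs and overlapping genes may be split or dropped. Totals ranged from 6017650 to 18925908 counts, and floors cover counting error only, while the 95% intervals (1.96 SE of the fit) include the spread between mice.

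Genes with a total count under 10 were removed (16632 of 33243 were tested). TMM scaling and 1 joint quasi-likelihood fit of the 4 group means were done in edgeR 4.0.16 (R 4.3.3). P-values were adjusted by Benjamini-Hochberg over all genes. CPM per kb uses the union of exons in GENCODE M21. Replicates are mice. The tdT+ and tdT− libraries of a number come from 1 animal and are paired by it; deviations of paired libraries from their group means correlated by r of −0.00460 to 0.0461 across genes in CTL and 0.228 to 0.449 in LPS mice. Mouse was no term of the reported fit, and it was a replicate block in alternatives with limma 3.58.1 and edgeR. Sample titles start with F or M, and all 11 calls kept their direction within each letter. The fit across genes was tried on simulated counts without pairing by mouse, in which only genes of higher level were changed, in the tdT− LPS group alone. It gives no check for genes as low as Ms4a14 or for the pairing by mouse. Members, lists and motifs were chosen with earlier results of these data known. Named genes are all members, other Ms4a genes with at least 10 counts in 5 libraries or that define a cell type, neighbours that were called, the 3 most similar genes per abundant member, and up to 4 list genes of the largest mean CPM; Clec7a, Trem2, Ms4a19, Ccr2 and the marker genes given with values were named after their values were seen. The printed sequences are from RefSeq.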

Additional observations from a re-analysis of the deposited data

Results flagged for a closer look

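In the tdT− CTL libraries, Ms4a6d was at 85.0 CPM in mouse 179, far below the next library at 277 CPM, a gap of 0.732 of the range of the group. In the tdT+ CTL libraries, Ms4a4c was at 151 CPM in mouse 174, above the next library at 68.6 CPM, a gap of 0.729 of the range. Both exceed the limit of 0.71 for 5 values. Of 28 groups checked (7 members in 4 groups), 2 exceeded it, and chance alone gives about 1 in 20. The tdT− CTL library of mouse 179 also had the highest fibroblast sum (3786 CPM), 97.3 CPM of Ms4a8a and the lowest Ms4a6b of its group (363 CPM). Mouse 174 was the highest for Ms4a4c in both populations of CTL mice.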

How the results depend on the processing

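Over 23 alternative settings, 3 of them chosen after seeing the data (limma-trend with and without the mouse as a block, and leaving out the tdT− CTL library of mouse 179), 724 of 763 log2 fold changes of members kept their direction and side of the threshold, 14 became calls, 12 lost theirs and 13 changed sign. The count of members called with LPS stayed at 4 to 6 in tdT− and 3 to 5 in tdT+ dCAMs. By label at baseline the 2 calls became 0 in the fit on the 10 libraries alone, with or without the mouse as a replicate block, and 1 in limma-voom with this block or with quality weights, and ranged from 1 (without mouse 179) to 3 (without mouse 177) when a mouse was left out. The fit on those libraries alone called 7 of all genes against 712, so that few genes pass there at all. For the difference of LPS effects the 0 calls became 1, Ms4a14, with DESeq2, with at least 10 counts required in 5 libraries, with mouse as a replicate block in limma-voom and limma-trend and in limma-trend without it, and ranged from 0 to 1 when a mouse or the tdT− CTL library of mouse 179 was left out; the cause was not tested. Signs changed only where no call was made. The LPS log2 fold change of Ms4a14 in tdT+ dCAMs was 0.23 in limma-voom with the block, 0.53 with quality weights and 0.33 in both limma-trend fits, and −0.51 to 0.58 when a mouse was left out. That of Ms4a6b by label in LPS mice was −0.000358 with quality weights, −0.0148 with the block as a fixed term and in both limma-trend fits and −0.0100 in the fit on 10 libraries with the block, and −0.0488 to 0.11 when a mouse was left out. That of Ms4a7 by label in CTL mice was −0.0371 to 0.20 when a mouse was left out. Beside the calls named above, Ms4a4c in tdT− dCAMs after LPS was lost with quality weights (adjusted p = 0.0879). The pairing by mouse changed no other call. The consensus correlation of paired libraries was 0.0413 in limma-voom and 0.0275 in limma-trend. Depth limits Ms4a14 in tdT− CTL dCAMs, with 0 to 8 counts per library.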
